A study of Drosophila melanogaster with 4 samples.

Results

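Transcript levels were compared between the Drosophila melanogaster lines LU.10580.tg1 and LU.10580.tg2, called tg1 and tg2 here. The members are all loci of the deposited tables that carry a single gene name and average 1 FPKM or more across the 4 libraries, which are 10051 of the 12066 single-name loci and of 13866 loci in all. FPKM is a fragment count scaled for transcript length and for the depth of the library. The other 2 libraries come from the lines LU.10580/CAG and LU.10580hom, called CAG and hom, and serve here to place each difference. Each line was sampled once, as total RNA of pharate adults kept on cornmeal food with yeast at 24 °C and depleted of ribosomal RNA. All 4 line names begin with LU.10580. What the endings stand for, and the sex, exact age and number of the animals, are not given in the sources at hand. The value column of the CAG library is headed het, and that of hom is headed hom, so the line name and the column heading of CAG differ.

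A pharate adult is a fly that has completed its adult form but has not yet left the pupal case. At this stage the adult cuticle is laid down and tanned, flight muscle and eye become functional, the larval fat body is used up, and the reproductive organs begin to make their products. RNA of whole animals mixes all these tissues, so fewer cells of a type and less RNA per cell cannot be told apart. Markers of the stage were at the following levels. The flight muscle actin gene Act88F had 6336 FPKM in tg1 and 6415 in tg2, and the main opsin gene ninaE had 826 and 962. The salivary glue genes of the larva (Sgs) reached at most 0.525 FPKM in tg1 and 0.378 in tg2.

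With 1 library on each side there is no replicate spread. No difference has a replicate check, and the comparison gives sizes only. Differences are tg1 minus tg2 on the log2(FPKM + 1) scale, where a positive value means more in tg1, and folds are on the same FPKM + 1 scale. A locus was called when the difference was at least 1 in size, which is 2-fold. The scale understates differences of loci with low values. Total depth is unknown. Steps between the lowest values put the depth of tg1 at 0.971 of that of tg2, from 33 of 315 low loci that shared this ratio.

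tg1 and tg2 differed by less than 0.5 at 87.1% of the tested loci, and the median difference was −0.03. The calls were 116 loci higher in tg1, 1.15% of those tested, and 130 loci lower, 1.29%. Together the 246 calls were 2.45% of the tested loci. Among them, 89 protein-coding loci and 17 small nucleolar RNAs were higher in tg1, and 97 and 27 were lower. Among the 9632 protein-coding loci with no value of 0 in any library, 80 were higher in tg1 (0.831%) and 88 lower (0.914%). The same count over both directions was 168 for tg1 against tg2 (1.74%), 232 for tg1 against CAG (2.41%) and 244 for tg1 against hom (2.53%). It was 290 for tg2 against CAG (3.01%), 400 for hom against CAG (4.15%) and 458 for tg2 against hom (4.75%). Of these 6 pairs, tg1 and tg2 thus had the fewest calls. Calls were spread over abundances. They were 2.66% of protein-coding loci with a mean of 1 to 5 FPKM, 1.5% from 5 to 20, 1.37% from 20 to 100, and 1.33% at 100 FPKM or more. Close to the call limit lay Acp76A just inside at 1.005 and Elo68alpha just outside at 0.99, and on the lower side CG33641 inside at −1.002 and Ugt36Bc outside at −0.99.

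**Figure D1:**
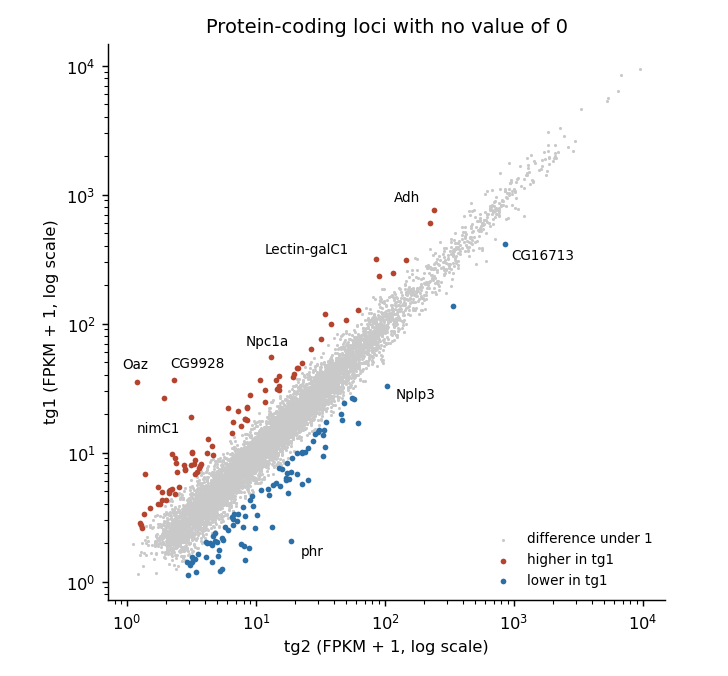
Levels of 9632 protein-coding loci in tg2 (x axis) and tg1 (y axis), as FPKM + 1 on log scales, 1 library per line. The 80 loci higher in tg1 (red) and the 88 lower (blue) lie on either side of the diagonal, with Oaz farthest above the diagonal and phr farthest below.

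The locus farthest above in tg1 was Oaz, a zinc-finger transcription factor gene. It had 34.2 FPKM in tg1 against 0.185 in tg2, 0.268 in CAG and 0.294 in hom. tg1 was the library that stood apart, by 29.7-fold from tg2. At most other leading genes the low value of tg2 stood apart from the other 3 lines. In tg2 CG9928 had 1.31 FPKM, against 35.3 in tg1, 31.9 in hom and 15.3 in CAG. CG13794, of the family of sodium-coupled neurotransmitter transporters, had 0.387 FPKM in tg2, 5.86 in tg1, 3.74 in CAG and 8.27 in hom. CG13962 had 0.938 FPKM in tg2, 25.5 in tg1, 18.1 in CAG and 179 in hom. All 3 genes were lowest in tg2.

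Genes of metabolism and lipid handling were among these. Npc1a, the membrane protein that lets sterols leave the lysosome, had 54.1 FPKM in tg1 and 12.01 in tg2, with 52.3 in CAG and 50.8 in hom, a difference of 2.08. tg1, CAG and hom lay close together and tg2 apart. Its partners in the sterol list did not share this. Npc2a, a secreted sterol carrier, had 63.4 FPKM in tg1 and 89.7 in tg2, and Npc2b had 44.3 and 60.1. Adh, the alcohol dehydrogenase that detoxifies dietary ethanol, had 764 FPKM in tg1 and 238 in tg2, with 682 in CAG and 655.0 in hom. The span of Adh in the tables, 2L:14599776-14689405, also holds osp, whose 2 loci had 30.5 and 4.77 FPKM in tg1 and 28.7 and 4.52 in tg2. Among the 8 tested loci of alcohol and glycerol phosphate metabolism, Adh alone was called, 12.5% against 1.15% of all loci. The list median was 0.01. Aldh, the next enzyme in ethanol breakdown, had 131 FPKM in tg1 and 163 in tg2, and Gpdh, of glycerol phosphate synthesis, had 649 and 684. The glycolysis list had 0 of 10 loci called and a median of −0.09. CG9150, a predicted short-chain dehydrogenase, had 8.13 FPKM in tg1 and 1.37 in tg2, and CG1941, of the acyltransferase family that makes triglycerides, had 20.03 and 6.22.

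**Figure D2:**
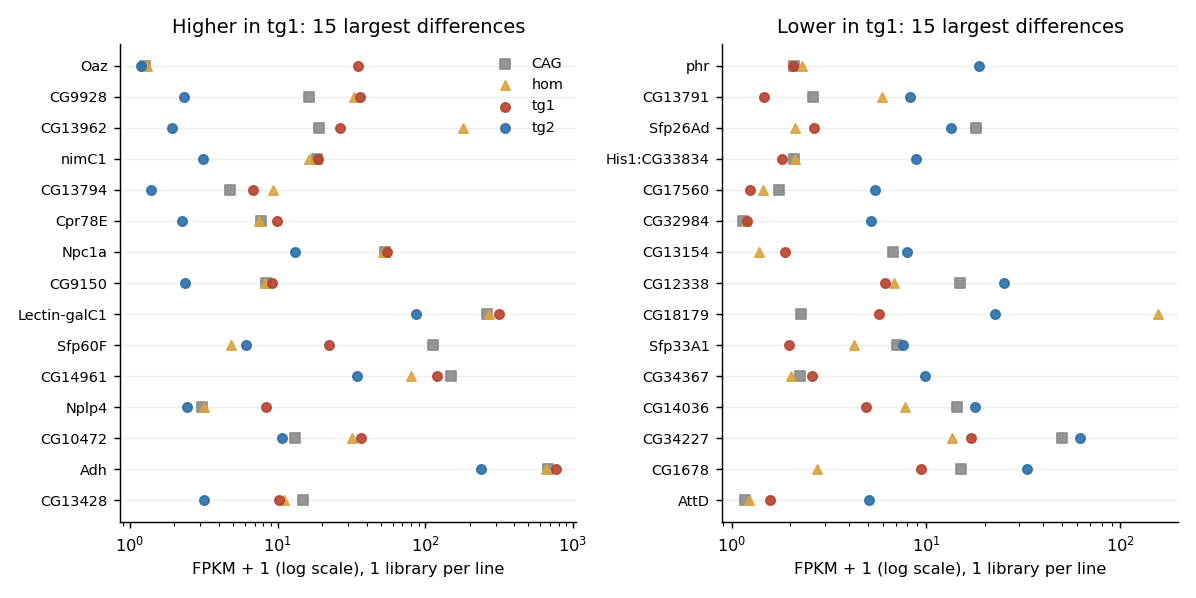
FPKM + 1 (log scale) in each of the 4 libraries for the 15 protein-coding loci with the largest difference in each direction, with grey squares for CAG, yellow triangles for hom, red circles for tg1 and blue circles for tg2. In the left panel tg2 is the lowest point for 14 of the 15 genes, all but Sfp60F. The right panel holds genes with tg2 above all other lines, such as phr and AttD, and genes with tg2 near CAG and tg1 near hom, such as Sfp26Ad and CG34227.

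Blood cell genes differed in both directions. Drosophila hemocytes take up bacteria and dead cells through receptors of the Nimrod and scavenger receptor families. nimC1, the Nimrod receptor of phagocytic plasmatocytes, had 17.9 FPKM in tg1 and 2.11 in tg2, with 17.6 in CAG and 15.4 in hom, so tg2 stood apart by 6.07-fold from tg1. The gene lies at 2L:13974117-13976753 among other Nimrod genes. In that cluster nimC3 had 23.9 FPKM in tg1 and 12.3 in tg2, short of the call, while nimC4, the receptor for dying cells also known as Simu, lay the other way with 27.8 and 52.7. nimC2 had 8.49 and 8.54 FPKM, nimB2 98.9 and 86.3, and nimB4 14.0 and 14.9. The low value of nimC1 in tg2 therefore did not extend over the cluster. He (Hemese), a surface protein of blood cells, was the called gene of the opposite direction, with 1.18 FPKM in tg1 and 4.49 in tg2. He shares its span with nimB5, at 23.9 and 29.2 FPKM, and the split of fragments between them is uncertain. Sr-CI, a scavenger receptor for bacteria, had 13.2 FPKM in tg1, 5.52 in tg2, 7.80 in CAG and 12.7 in hom.

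The general hemocyte markers were less far apart. Hml (hemolectin, a clotting protein) had 74.0 FPKM in tg1 and 57.5 in tg2, Pxn (peroxidasin) had 19.1 and 16.4, and eater, another phagocytic receptor, had 39.1 and 25.0. Over the 21 tested loci of the blood cell list 2 were called as higher in tg1 (9.52% against 1.15% of all loci) and 1 as lower (4.76% against 1.29%), and the median was −0.01. With a pseudocount of 5 FPKM only nimC1 was called. All 7 tested loci of the melanization list were higher in tg1 by some amount, where 46% of all tested loci were. The list median was 0.58, and 1 locus was called, 14.3% against 1.15% of all loci. That locus was proPO-A1, a phenoloxidase of crystal cells, with 7.07 FPKM in tg1 and 1.79 in tg2. It was not called with a pseudocount of 5 FPKM. Its span also holds 5 other genes.

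Humoral immune genes were called in both directions. AttD, an attacin without a signal for secretion, reached 4.06 FPKM in tg2 against 0.570 in tg1, 0.219 in hom and 0.166 in CAG, and Def (defensin) had 3.13 in tg2, 0.541 in tg1, 1.66 in CAG and 1.31 in hom. Def shares its span with 2 other loci. These 2 were the called loci among 14 tested antimicrobial peptide loci, 14.3% against 1.29% of all loci, and the list median was 0.07. Neither was called with a pseudocount of 5 FPKM. Drs (drosomycin), the most abundant of them, had 99.4 FPKM in tg1 and 84.7 in tg2. Among 12 tested loci of Bomanins and related peptides, IM2 was higher in tg1, with 37.3 FPKM against 11.7, and so was IM4, with 21.5 against 7.47. CG15065 was lower in tg1, with 1.58 FPKM against 6.28. These were 16.7% and 8.33% of the list, against 1.15% and 1.29% of all loci, and the list median was 0.25. PGRP-SC2, an enzyme that degrades peptidoglycan and dampens the immune response, had 10.2 FPKM in tg1 and 3.56 in tg2. It was the 1 called locus among 8 tested for peptidoglycan recognition, 12.5% against 1.15% of all loci. Of the 8 loci 6 were lower in tg1, and the list median was −0.14. PGRP-SB1, with 2.08 FPKM in tg1 and 5.03 in tg2, was just short of the call. The stress peptide gene TotX had 6.02 and 1.43 FPKM, while TotA, the most abundant of its family on average, had 30.8 and 55.3. Lectin-galC1, a galactose-binding lectin whose span holds 4 other loci, had 313 FPKM in tg1, 84.9 in tg2, 259 in CAG and 269.6 in hom. lectin-24Db went the other way, with 4.53 FPKM in tg1 and 14.3 in tg2, and the lysozyme gene LysX did too, with 9.05 and 23.1. Among the 6 tested lysozyme loci LysC was called the other way, with 1.64 FPKM in tg1 and 0.243 in tg2. LysX and LysC were each 16.7% of that list, where 1.29% of all loci were called lower and 1.15% higher. The list median was 0.64 with 4 loci above 0.

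Cuticle protein genes were called as higher in tg1. Insect cuticle is chitin bound by families of structural proteins, each made at set times of a moult. Of the 69 tested loci of the list 9 were higher in tg1 and 0 lower, where 1.15% and 1.29% of all tested loci were, with a median of 0.30 and 50 loci above 0. Over all tested loci 46% lay above 0. The called count depended on the pseudocount, with 2 higher and 0 lower at 5 FPKM and 12 higher and 2 lower at 0.1 FPKM. Cpr78E had 8.83 FPKM in tg1 and 1.25 in tg2, with 6.70 in CAG and 6.51 in hom, and Ccp84Af had 4.42 and 0.727, with 3.44 and 3.39. In both genes tg2 was the low library. Acp1, an abundant protein of adult cuticle, had 97.4 FPKM in tg1, 37.3 in tg2, 115 in CAG and 135 in hom. The neighbouring and closely alike genes Lcp65Ag2 and Lcp65Ag3 had 7.71 and 3.91 FPKM in tg1 and 2.35 and 0.851 in tg2, and fragments can be shared between them. Cpr66Cb had 31.5 FPKM in tg1, 14.02 in tg2, 23.4 in hom and 5.89 in CAG, so hom was nearer to tg1 and CAG lowest. The most abundant locus of the list, Acp65Aa, had 3032 FPKM in tg1 and 1831 in tg2, differing by 0.73 and short of the call.

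Other gene families of the cuticle held no called locus. These were the 23 tested loci for chitin synthesis, binding and remodelling, with a median of 0.14, the 19 of cuticle tanning, with 0.13, and the 9 of the Osiris membrane proteins, with 0.20. The 5 tested Tweedle loci held none either, but their median was −0.30, with 3 of them below 0. Among 53 tested cytochrome P450 loci, enzymes that oxidise hormones, hydrocarbons and toxins, 3 were higher in tg1 and 0 lower, 5.66% against the same 1.15%. Cyp4e3 had 38.5 FPKM in tg1 and 14.1 in tg2, Cyp6w1 had 4.44 and 1.51, and Cyp6a13 differed by 1.37. Cyp4g1, the oenocyte enzyme that makes cuticular hydrocarbons and the most abundant of the list, had 1091 and 677 FPKM, short of the call. The P450 median was 0.22. Glutathione transferases, with 17 loci tested and a median of 0.21, held no call.

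**Figure D3:**
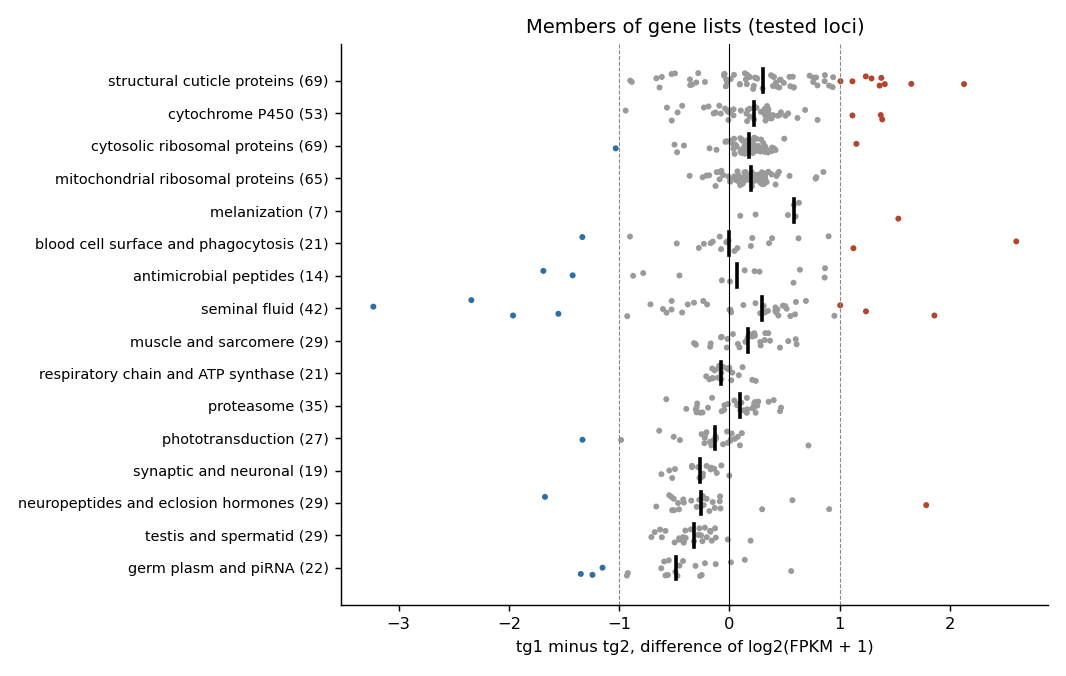
Difference between tg1 and tg2 (x axis, log2(FPKM + 1)) for the tested members of 16 gene lists, with the number tested in brackets, list medians as black bars and dashed lines at −1 and 1. Called members are red (higher in tg1) or blue (lower). Cuticle protein, P450 and melanization genes have called members on the right side alone. Germ plasm, antimicrobial peptide and phototransduction genes have them on the left side alone.

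Genes of the reproductive organs were called on both sides. In the germ plasm and piRNA list, whose genes build germ cells and silence their transposons, 19 of 22 tested loci were lower in tg1 and the median was −0.48. Over all tested loci 53.9% were lower in tg1. The 3 called loci, 13.6% against 1.29% of all loci, were all lower in tg1, and with a pseudocount of 5 FPKM none was called. osk, which assembles the germ plasm of the egg, had 2.21 FPKM in tg1, 7.16 in tg2, 6.22 in CAG and 0.851 in hom. zpg, a gap junction protein of germ cells, had 1.05 FPKM in tg1, 3.84 in tg2, 3.95 in CAG and 0.872 in hom, and vas, a germline RNA helicase, had 0.980, 3.40, 2.77 and 0.927. zpg and vas each share a span with 2 other loci. In all 3 genes tg2 lay with CAG, and tg1 with hom. piwi and nos, at 2.51 and 0.899 FPKM in tg1 and 5.65 and 2.62 in tg2, were just short of the call. Outside the lists, dhd, a thioredoxin of the female germline, had 3.69 FPKM in tg1 and 11.7 in tg2. RpS5b, a germline copy of a ribosomal protein, had 14.1 and 29.8 FPKM, while the list of cytosolic ribosomal proteins it belongs to had a median of 0.18.

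The testis list lay on the same side with smaller differences. Of 29 tested loci 28 were lower in tg1, where 53.9% of all tested loci were, 0 were called, and the median was −0.32. dj, of the sperm tail, had 145 FPKM in tg1 and 194 in tg2, and Mst87F, also of the sperm tail, had 645 and 859.6. kl-5, a dynein heavy chain gene on the Y chromosome needed for sperm tails, had 8.97 FPKM in tg1 and 19.9 in tg2. It was called, at −1.07, but is not in the testis list. The dosage compensation RNAs roX1 and roX2, which are made in males, had 158 and 364 FPKM in tg1 and 206 and 508 in tg2. The numbers of males and females in each pool are not given, and the part of sex in these values was not tested.

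Seminal fluid genes were called in both directions. Of 42 tested loci 3 were called higher in tg1, 7.14% against 1.15% of all loci, and 4 lower, 9.52% against 1.29%. By sign alone 26 lay above 0 and 15 below, and the median was 0.29. Sfp60F had 21.2 FPKM in tg1, 5.11 in tg2, 112 in CAG and 3.81 in hom, Sfp35C had 4.11, 1.17, 9.16 and 3.51 in the same order, and Acp76A had 3.75, 1.37, 12.99 and 1.96. CAG was the highest library at all 3. On the other side Sfp26Ad had 1.65 FPKM in tg1, 12.4 in tg2, 17.1 in CAG and 1.12 in hom. The other 3 loci lower in tg1 belong to the Sfp33A group on 2L. Sfp33A1 had 0.962 and 6.64 FPKM in tg1 and tg2, Sfp33A2 had 5.19 and 17.1, and Sfp33A4 was listed at 0 in tg1 with 8.37 in tg2. Sfp33A3, of the same group, had 17.5 and 17.4 FPKM. Sfp33A2, Sfp33A3 and Sfp33A4 share the span 2L:11814125-11928570 with 6 other loci, and their fragments may be divided unevenly. Acp70A, the sex peptide, had 13.8 FPKM in tg1 and 9.56 in tg2, and yolk protein Yp3 had 8.51 and 3.61.

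Genes of nerve cells lay lower in tg1 by small amounts. All 19 tested loci of the synaptic and neuronal list were lower in tg1, with a median of −0.26 and a lowest value of −0.62, so none was called. Of all tested loci 53.9% were lower in tg1. Voltage-gated channels had 11 of 12 loci lower and a median of −0.20, and the nicotinic acetylcholine receptor subunits 9 of 10 and −0.30. Some channel genes stand in the synaptic list too. Among 29 tested loci of neuropeptides and eclosion hormones 25 were lower in tg1, and the median was −0.26. The 2 called genes lay on opposite sides. Each was 3.45% of the list, where 1.15% of all loci were called higher and 1.29% lower. Nplp4 had 7.33 FPKM in tg1, 1.42 in tg2, 2.05 in CAG and 2.16 in hom, and tg1 stood apart. Nplp3 had 31.6 FPKM in tg1, 103 in tg2, 229 in CAG and 18.9 in hom. Nplp2, the most abundant member, had 1466 and 783 FPKM in tg1 and tg2, a difference of 0.90. All 3 are named as neuropeptide-like precursors.

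In the eye, Rh5, an opsin for blue light found in some inner photoreceptors, had 5.89 FPKM in tg1, 16.3 in tg2, 19.7 in CAG and 1.28 in hom. The other opsins lay closer. Rh3 had 57.8 and 67.8 FPKM in tg1 and tg2, Rh4 34.8 and 34.5, and Rh6 18.0 and 16.8. Rh5 was the only called locus among 27 of phototransduction, 3.7% against 1.29% of all loci. The list median was −0.13, and with a pseudocount of 5 FPKM no locus was called. retinin, a protein of the corneal lens, had 13.03 FPKM in tg1 and 27.5 in tg2. Lists of muscle, respiratory chain, proteasome, vacuolar proton pump, clock, insulin pathway, ecdysone response and heat shock genes held no called locus, and their medians ran from −0.07 for the respiratory chain to 0.17 for muscle. The called genes CG4461, of the small heat shock proteins, and zormin, of muscle, are described below and were not in these lists. Mitochondrial ribosomal proteins had 54 of 65 loci higher in tg1 and a median of 0.20, and cytosolic ribosomal proteins 60 of 69 and 0.18. Of all tested loci 46% were higher in tg1. RpS3A, listed at 3.02 FPKM in tg1 and 0.809 in tg2, was called, but a second locus of that name with the same span had 1599 and 1276 FPKM.

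Among the 15 protein-coding loci farthest below in tg1, tg2 stood above each other line at some. phr, a photolyase that repairs ultraviolet damage in DNA, reached 17.8 FPKM in tg2 against 1.06 in tg1, 1.29 in hom and 1.10 in CAG. The span of phr, 2R:3712997-3716181, also holds the proteasome gene Prosalpha1, which is listed at 0 in all 4 libraries, so the assignment of fragments there is uncertain. The next locus on the chromosome, CG30383, had 2.36 FPKM in tg2 and 0.487 in tg1. CG32984 reached 4.23 FPKM in tg2 against 0.202 in tg1, 0.182 in hom and 0.140 in CAG, and CG34367 had 8.89 in tg2, 1.58 in tg1, 1.24 in CAG and 1.01 in hom. CG17560 reached 4.47 FPKM in tg2 against 0.240 in tg1, 0.445 in hom and 0.745 in CAG. The D-amino acid oxidase gene Daao1 (deposited as CG12338) had 24.2 FPKM in tg2, 5.12 in tg1, 13.8 in CAG and 5.83 in hom. Its relative Daao2 (CG11236) had 44.3 FPKM in tg2, 18.9 in tg1, 19.0 in CAG and 23.7 in hom. The metallothionein gene MtnE (CG42872) had 45.6 FPKM in tg2 and 16.8 in tg1, while MtnA, the most abundant metallothionein, had 1046 in tg2 and 1325 in tg1. The serine protease gene CG18179 had 21.5 FPKM in tg2, 4.69 in tg1, 1.27 in CAG and 154.5 in hom, in a span that holds 5 other loci. The digestive protease genes Jon65Aiii and Jon65Aiv were lower in tg1 too, with 0.757 and 2.78 FPKM against 4.15 and 6.98. They were the 2 called among 11 tested trypsin and Jonah loci, 18.2% against 1.29% of all loci, while 7 of the 11 were higher in tg1 and the list median was 0.24. Neither was called with a pseudocount of 5 FPKM. CG10472, near them at 3L:6053046-6056006 and outside that list, lay the other way. It had 35.6 FPKM in tg1 and 9.67 in tg2, in a span shared with CG6592.

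CAG and hom show which library of the pair stood apart. Of the 80 protein-coding loci higher in tg1, tg2 alone lay at least 1 below both CAG and hom or above both at 32, tg1 alone did at 4, and neither did at 44. Of the 88 lower in tg1 these counts were 19, 5 and 64. The departing library was therefore tg2 more often than tg1 in both directions.

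At many loci lower in tg1, CAG also stood above hom. The difference hom minus CAG shares no library with tg1 minus tg2, apart from the filter on the mean. Of the 88 protein-coding loci lower in tg1, 27 were also called lower in hom than in CAG, 30.7% against 2.67% of all 9632 loci. Called higher in hom were 7 of the 88, 7.95% against 1.48%. Of the 80 loci higher in tg1, 8 were called higher in hom (10%) and 6 lower (7.5%). All 4 shares were above those of all loci, and the share lower in both tg1 and hom was the highest. Across the 9632 loci the 2 differences correlated with a Pearson coefficient of 0.15 and a Spearman coefficient of 0.17, given as a description over loci that are not independent. The genes lower in both tg1 and hom came from several tissues. They included osk, zpg and dhd of the germline, Rh5 and retinin of the eye, Sfp26Ad of the seminal fluid, and Nplp3. CG34227 had 16.1 FPKM in tg1, 60.7 in tg2, 48.8 in CAG and 12.5 in hom. CG15617 had 137 FPKM in tg1, 335 in tg2, 398 in CAG and 54.5 in hom. CG4461, a small heat shock protein gene, had 12.6, 32.1, 33.3 and 6.96 FPKM in that order. Exact ages are not given, and the part of age in these values was not tested.

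**Figure D4:**
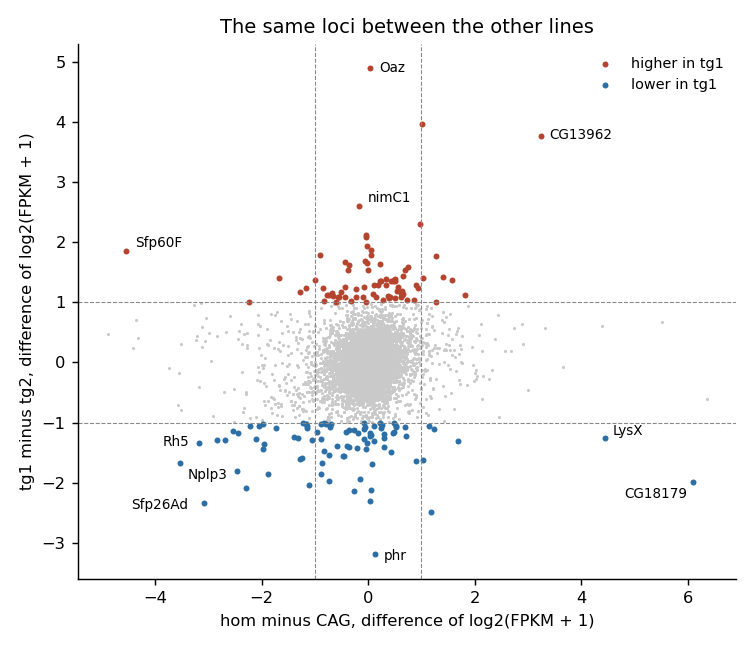
Difference between tg1 and tg2 (y axis) against the difference between hom and CAG (x axis), both in log2(FPKM + 1), for 9632 protein-coding loci, with dashed lines at −1 and 1. The lower left corner, lower in tg1 and in hom, holds 27 loci, and the lower right corner 7. The upper corners hold 6 and 8.

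Chromosome arm 2L held more of the calls than of the loci. Of 181 protein-coding calls on the main arms 67 lay on 2L, 37.0% with an exact Clopper-Pearson 95% interval of 29.97% to 44.5%. The interval covers counting error only. It takes called loci as independent, though some were neighbours called in the same direction. Of the loci tested 19.2% lay on 2L. The calls on 2L were 34 higher and 33 lower in tg1. tg2 alone departed from CAG and hom at 23 of these 67 and tg1 alone at 4. Arms 3R and X held less than their part, with 12.7% and 9.39% of the calls against 24.2% and 16.3% of the loci. In steps of 4 Mb along 2L, the share of called loci was 2.54% from 0 to 4 Mb, 3.63% from 4 to 8, 4.49% from 8 to 12, 5.42% from 12 to 16, 2.4% from 16 to 20 and 3.23% from 20 to 24. No step of 4 Mb on another arm passed 3.39%. nimC1, He, CG9928, Adh and vas lie between 12 and 16 Mb, and Npc1a, CG34367, Sfp33A1 and Sfp33A2 between 8 and 12 Mb.

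**Figure D5:**
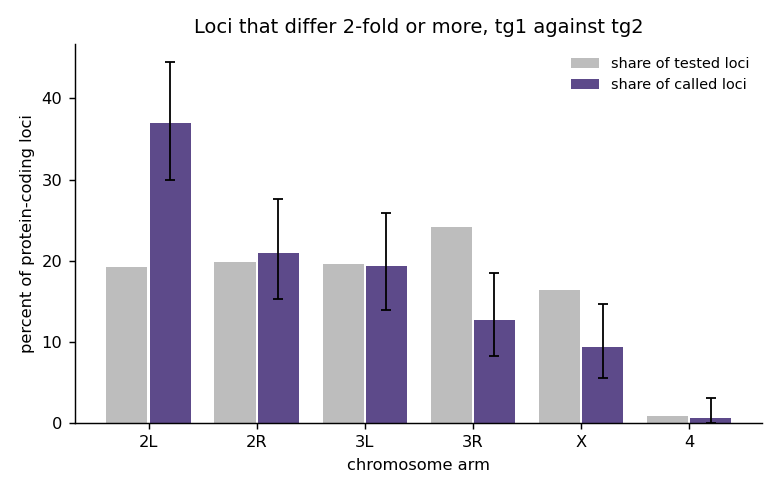
Share of tested protein-coding loci (grey) and of loci that differ at least 2-fold between tg1 and tg2 (purple) on each chromosome arm, in percent. The exact 95% intervals for the called share cover counting error only and take loci as independent. On 2L 37.0% of the calls stand against 19.2% of the loci.

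Some called genes were next to each other. Of 9577 protein-coding loci tested on the main arms, 181 were called. Among 9571 adjacent pairs of these loci, 8 had both loci called, always in the same direction. How many such pairs independent placement of the calls would give was not worked out. One of the 8 was phr with CG30383. Nplp4 stood beside CG15353, which had 17.3 FPKM in tg1 and 7.14 in tg2. CG12560 stood beside CG34010 (Glyat), with 17.0 and 2.72 FPKM in tg1 and 7.48 and 0.513 in tg2. Jon65Aiv and Jon65Aiii formed a pair, and AttD lay after CG34281, which was listed at 0 in tg1.

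Loci listed at 0 in tg1 or in tg2 numbered 60, of which 33 were small nucleolar RNAs and 19 protein-coding. A 0 in these tables can be a failed estimate, so no fold is given. zormin, a giant muscle protein gene, was listed at 0 in tg2 with 62.0 FPKM in tg1, 66.3 in CAG and 48.3 in hom. CG31140 and CG42817 were also listed at 0 in tg2, with 61.1 and 44.9 FPKM in tg1. hbs, a cell adhesion protein of muscle fusion, was listed at 0 in tg1 with 5.94 FPKM in tg2. Its values in CAG and hom were 0.857 and 0.896, and a second hbs locus had 4.30 FPKM in tg1 and 3.79 in tg2.

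Small nucleolar RNAs, which guide the modification of ribosomal RNA, held 44 of the 246 calls from 128 tested loci, with 13.3% higher and 21.1% lower in tg1 against 1.15% and 1.29% of all tested loci. Many are clustered, alike in sequence and shorter than the fragments of such libraries, which makes their FPKM uncertain. snoRNA:U27:54Ea was listed at 0 in tg2 with 2969 FPKM in tg1, while snoRNA:U27:54Eb, in the same span, was listed at 0 in tg1 with 1944 in tg2. Both were listed at 0 in hom. Likewise snoRNA:Me28S-G3113b, with 973 FPKM in tg1, and snoRNA:Me28S-G3113a, with 1419 in tg2, were each listed at 0 in the other line. CAG had 1057 and 1814 FPKM for these copies, and hom was listed at 0 for both. Whether fragments were exchanged between copies was not tested. snoRNA:185, a locus with no 0, had 130272 FPKM in tg1, 22309 in tg2, 25832 in CAG and 54566 in hom. Among 22 tested spliceosomal RNAs 5 were called higher in tg1, 22.7% against 1.15% of all loci, and 3 lower, 13.6% against 1.29%. snRNA:U5:38ABa had 3564 FPKM in tg1 and 784 in tg2, and snRNA:U4:25F lay the other way with 5.40 and 27.0. snRNA:U5:63BC, with the highest level, had 48118 and 57853 FPKM, a difference of −0.27.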

How the data were processed

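The deposited values are FPKM, computed by the authors and named so in the file headers, with 1 value per locus and library. Cufflinks, TopHat, bedtools and SAMtools are listed, with dm3 as the build, in the submitters' processing notes, which give no versions. Per the labels' protocols, libraries were made with a TruSeq kit and sequenced as paired reads of 48 nt. For annotation, strand use, multiply mapped reads and depth, nothing is stated in the labels or headers. Coordinates are those of the deposited loci, with starts counted from 1.

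Names were matched to symbols and unambiguous synonyms of a Release 6 RefSeq table, which gave names and gene types only, and 9888 of the 10051 tested loci matched. The tested loci carry 9993 distinct names, and 1 name had been turned into a date. Differences used a pseudocount of 1 FPKM and a minimum mean of 1 FPKM. No test was run and no p-value computed, because each line has 1 library. The script was checked on made-up input with known differences. Named genes are the 15 largest differences per direction among protein-coding loci with no 0, the called (at most 6) and most abundant members of each list, and the 5 highest loci per direction listed at 0 in the other line. Other genes are named beside these as members of the same list, family, span or adjacent pair, or as called genes outside the lists, and were chosen after their values were seen. Gene lists were compiled from symbols, and the members and lists were chosen with earlier results of these data known. Alternatives were pseudocounts of 0.1 and 5 FPKM, no filter, a filter of 5 FPKM, centring on the median, trimmed-mean scaling, protein-coding loci alone, leaving out 2L and, added after seeing the data, leaving out loci listed at 0 in tg1 or tg2. Python 3.11.15, pandas 2.3.3, numpy 2.4.6 and scipy 1.17.1 were used.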

Additional observations from a re-analysis of the deposited data

How the results depend on the processing

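The counts of calls depended on the pseudocount. With 0.1 FPKM there were 183 loci higher and 220 lower in tg1, and tg1 alone departed from CAG and hom at 51 called loci. With 5 FPKM there were 57 and 58, tg2 alone departed at 38 and tg1 alone at 12. At the main pseudocount of 1 FPKM these 2 counts were 79 and 20 over all tested single-name loci. The departure counts in the Results are for protein-coding loci. A filter of 5 FPKM gave 85 loci higher and 78 lower in tg1, so that higher calls became the more frequent, and 13 where tg1 alone departed. Protein-coding loci with no 0 gave 51 for tg2 and 9 for tg1. Without arm 2L there were 77 loci higher and 86 lower, and 50 where tg2 alone departed; fewer loci were tested there by construction. Median centring gave 133 higher and 113 lower, and trimmed-mean scaling 118 and 124. No called named gene changed direction under these settings. Median centring raised every difference by 0.056. Named genes with a smaller negative difference, such as Act88F at −0.018, therefore changed sign under it. A pseudocount of 5 took 31 named genes below the call, among them osk, vas, zpg, Rh5, AttD, Def, He, Sr-CI and proPO-A1, and median centring took RpS5b to −0.97. The median of the blood cell list, near 0, changed sign under both scalings, to 0.05 and 0.01, and so did those of the storage protein and eye pigment lists. That of the ecdysone response list became 0.02 under centring. Of 59 list medians 12 moved by over 0.1 with a pseudocount of 5 and 15 with no filter, as did 14 of those that a filter of 5 FPKM left. No paired analysis was possible because each line has 1 library, and for the same reason none could be left out in turn. Unknown depth limits loci of a few FPKM most.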
